A study of Danio rerio with 6 samples.

Results

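miR-221 and miR-222 are 2 of the 218 zebrafish miRNAs on the array, found by their probe names, dre-miR-221 and dre-miR-222. Small RNA came from pooled hearts of adult zebrafish of the Ekkwill strain, 3 samples of uninjured hearts and 3 of regenerating hearts, collected 6 hours after resection of heart tissue under anaesthesia. The series describes the triplicates as biological; the number of fish in a pool, their age beyond adult, and any mock operation of the uninjured fish are not stated in the labels. In each group 2 samples carried the dye Cy3 and 1 the dye Cy5. Each probe had 12 spots per array. Because the RNA came from pooled heart tissue, a change in the number of cells of a type and a change of a miRNA per cell cannot be told apart.

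A miRNA is a short RNA that guides a silencing complex to messenger RNAs, mainly through its seed, the stretch just after its first base. miR-221 and miR-222 are made from neighbouring genes and are known in mammals for repressing the cell-cycle inhibitor Cdkn1b and the receptor tyrosine kinase Kit, and for acting in endothelial cells and in the proliferation of vascular smooth muscle. In zebrafish embryos miR-221 is known for its role in the growth of sprouting vessels.

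The target sequences deposited for the 2 probes are shown because both the shared seed and the likeness of the rest bear on reading the pair. Capitals mark the seed, bases 2 to 8 from the 5′ end.
miR-221: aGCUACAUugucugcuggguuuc
miR-222: aGCUACAUcuggcuacugggucuc
The first 8 bases are the same, and of the 218 miRNA targets only these 2 hold the seed GCUACAU. miR-221 has 23 bases and miR-222 has 24, and they lie at an edit distance of 4 from each other. Every other target differed by at least 8 edits from miR-221 (miR-730) and by at least 9 from miR-222 (miR-107 and miR-139). How much of the signal of one probe comes from the other miRNA was not tested. In the RefSeq table of the GRCz12tu assembly dre-mir-221 and dre-mir-222 lie on the same chromosome with 0 genes of that table between them. A further gene, mir222b, is listed there, and no probe carries that name on this array.

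Both probes were bright. Taking replicates 1, 2 and 3 in order, the background-subtracted mean of miR-221 over its 12 spots was 10467, 12155 and 11019 intensity units without injury and 13221, 9845 and 7219 after amputation. Those of miR-222 were 9420, 11749 and 10536 without injury and 12957, 9526 and 7508 after it, and values of 3 samples follow this order throughout. On this scale the groups overlapped for both probes, regenerating replicate 1 being the brightest of the 6 and regenerating replicate 3 the dimmest. The spots agreed closely within an array, with a coefficient of variation of 3.16% for miR-221 and 2.82% for miR-222 in regenerating replicate 1 and, at the widest, 7.82% and 7.28% in uninjured replicate 1. The weakest margin was in regenerating replicate 2, where the signal was 69.3 times the detection limit (3 SDs of the empty spots) for miR-221 and 67.0 times for miR-222. The brightest spot of any kind on an array read between 41626 and 58536, well above the members.

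These intensities are not yet comparable between arrays, since the summed signal of all miRNA probes ran from 553598 in regenerating replicate 3 to 1013820 in uninjured replicate 2. The position of each probe within its own array does not change with a factor common to the array. Counted from the brightest of the 218, miR-221 stood at positions 29, 29 and 30 in the uninjured samples and at 26, 22 and 25 in the regenerating ones. miR-222 stood at 32, 31 and 33 in the uninjured samples and at 27, 23 and 23 in the regenerating ones. Both members therefore stood nearer the bright end in every regenerating sample than in any uninjured one, miR-222 by more places than miR-221.

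Quantile normalization turns such positions into log2 levels on a scale shared by the arrays, so equal positions give equal values. The normalized level of miR-221 was 13.19, 13.19 and 13.11 in the uninjured samples and 13.35, 13.58 and 13.40 in the regenerating ones. For miR-222 it was 13.01, 13.05 and 12.95 in the uninjured samples and 13.29, 13.49 and 13.49 in the regenerating ones. For both probes the lowest regenerating sample exceeded the highest uninjured one, a pattern shared by 13 of the 138 probes tested (9.42%), and 20 probes (14.5%) showed the opposite order. Group means were 13.16 ± 0.051 and 13.44 ± 0.12 for miR-221, and 13.00 ± 0.050 and 13.43 ± 0.11 for miR-222 (uninjured and regenerating, SD, n = 3 each).

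**Figure D1:**
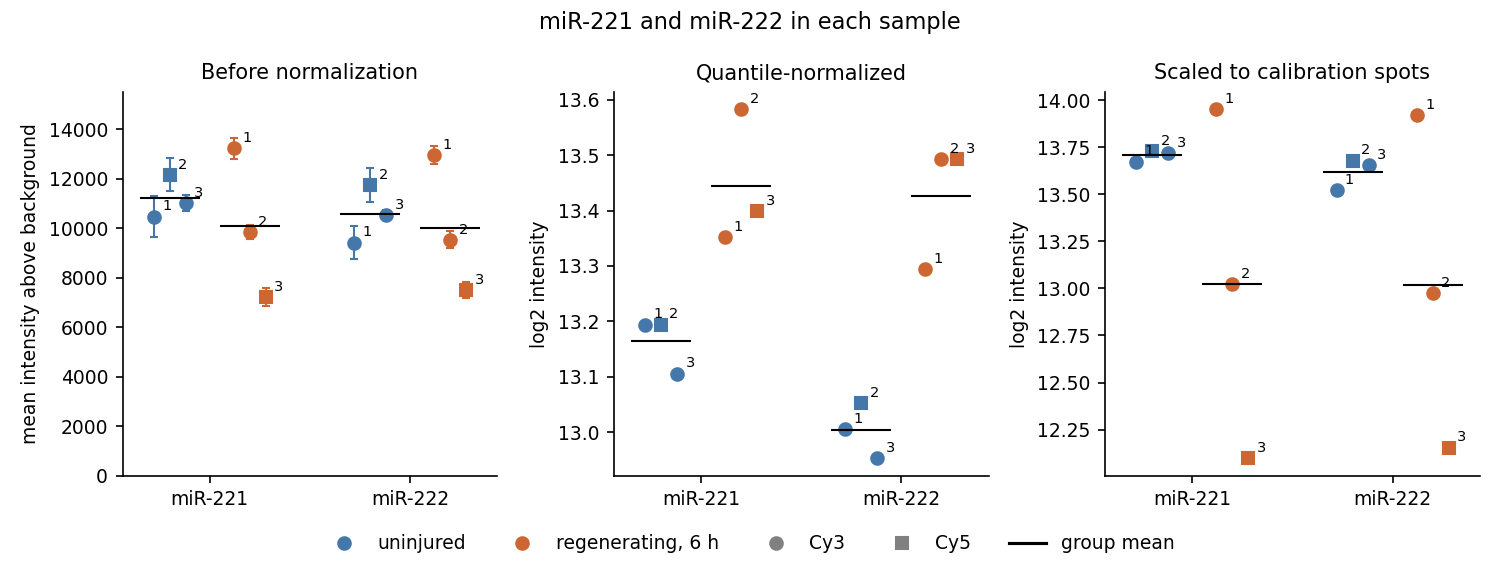
Levels of miR-221 and miR-222 in each of the 6 samples as background-subtracted intensity (error bars, SD over 12 spots), as quantile-normalized log2 intensity and as log2 intensity scaled to calibration spots. Numbers beside the points are replicate numbers, squares are Cy5 samples and black lines are group means; the groups are apart in the middle panel, and in the other panels regenerating replicate 1 is the highest and replicate 3 the lowest.

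Regenerating against uninjured hearts is the one comparison of the design, and neither member passed its test. Regenerating minus uninjured, the log2 change was 0.28 (SE 0.13, 95% interval -0.046 to 0.61) for miR-221, 1.21-fold, and 0.42 (SE 0.13, 95% interval 0.11 to 0.73) for miR-222, 1.34-fold. The adjusted p-values in limma, with a term for dye and Benjamini-Hochberg adjustment over the 138 probes, were 0.324 and 0.131. In that fit 5 probes (3.62%) passed the threshold of 0.05, 2 of them higher (1.45%) and 3 lower (2.17%). By p-value miR-222 was number 17 of the 138 and miR-221 number 34, and miR-222 was one of the 28 probes (20.3%) with an unadjusted p below 0.05, at 0.0162, of which 12 (8.7%) were higher. Among the Cy3 samples alone the changes were 0.29 and 0.39 (limma adjusted p = 0.420 and 0.326), and the Cy5 samples, 1 a group, read 13.19 and 13.40 for miR-221 and 13.05 and 13.49 for miR-222, uninjured first. For scale, the smallest adjusted p-values belonged to miR-738 (0.0029 at a log2 change of 2.81) and miR-129 (0.0087 at 1.28), both far dimmer probes.

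On the quantile-normalized scale bright probes differed little between the groups, and both members lay at the upper edge of what their like showed. Of the 28 probes other than the members whose mean level lay within 1 log2 unit of miR-221, 3 had a larger change than it. Among the 29 such probes within 1 log2 unit of miR-222, 1 had a larger change than miR-222. The changes of these 28 probes ran from -0.39 to 0.44 with a median of -0.038, 3 of them were higher in every regenerating sample than in any uninjured one, and 0 were called. The median over all 138 tested probes was -0.052. This is a description of probes of like brightness, not a test.

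**Figure D2:**
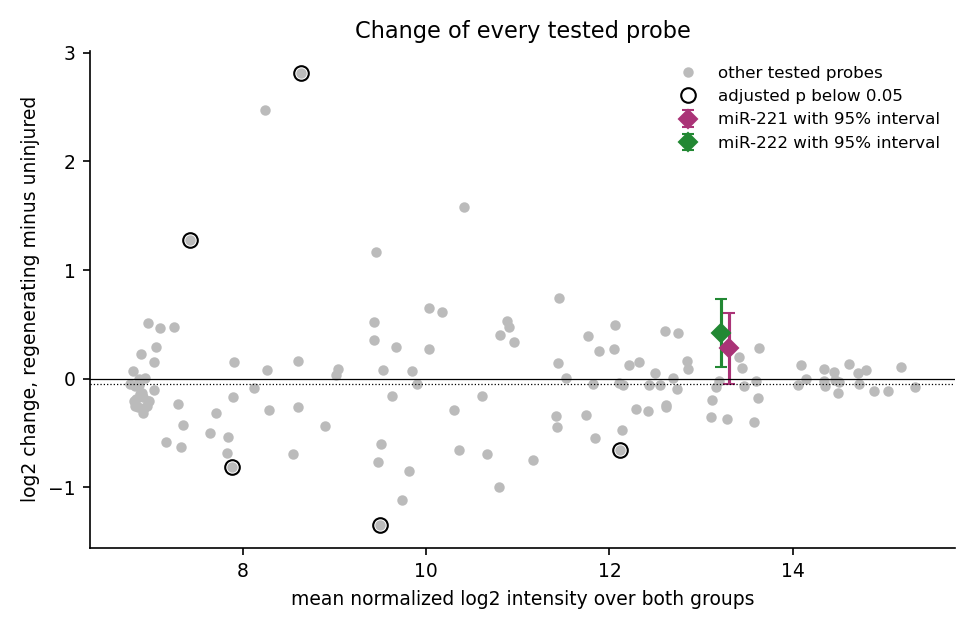
Log2 change (regenerating minus uninjured) of the 138 tested probes against their mean normalized log2 intensity. Open circles mark the 5 probes past the threshold, diamonds the members with their 95% intervals, and the dotted line the median of all probes; the interval of miR-221 reaches below 0 and that of miR-222 does not.

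Content of G and C bases was 47.8% in miR-221 and 54.2% in miR-222, against a median of 45.5% over the tested probes. With a GC term removed within each array the log2 change was 0.20 for miR-221 and 0.24 for miR-222 (limma adjusted p = 0.448 and 0.431), moving that of miR-222 by over 1.5 times. Among the 41 probes other than the members with a GC content within 5 percentage points of that of miR-222, the median change was 0.0069 and 7 lay above miR-222.

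The sign of the change differed between ways of putting the arrays on a common scale. With values scaled to 5 added calibration sequences, the log2 change was -0.68 for miR-221 and -0.60 for miR-222 (limma adjusted p = 0.376 and 0.431), where the median of all probes was -0.79. On that scale miR-221 read 13.67, 13.73 and 13.72 in the uninjured samples and 13.95, 13.02 and 12.10 in the regenerating ones. miR-222 read 13.52, 13.68 and 13.66, and 13.92, 12.97 and 12.15. The groups overlapped, regenerating replicate 1 lying above and replicates 2 and 3 below every uninjured sample. Mean miRNA signal over calibration signal was 0.939 to 1.06 in the uninjured samples and 1.01, 0.473 and 0.301 in the regenerating ones. The calibration signal itself (geometric mean) was 4079, 4564 and 4176 in the uninjured samples and 4267, 6111 and 8431 in the regenerating ones. The part of either signal in the result was not tested. This scaling takes the added amounts as equal. Scaling by the 75th percentile of the probes detected on all arrays gave 0.24 and 0.32 for miR-221 and miR-222, where the median of all probes was 0.13, and scaling by their median gave 0.47 and 0.55, where it was 0.36. Less that median, miR-221 stood at 0.11 and miR-222 at 0.19 under each of these 3 scalings, which are equal by construction, and at 0.33 and 0.47 with quantile normalization.

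The authors' processed intensities, a separate table of the same arrays, gave the same order. miR-221 was listed at 8088, 7834 and 7696 in the uninjured samples and at 9471, 11193 and 9182 in the regenerating ones. miR-222 was listed at 7387, 7715 and 7480 in the uninjured samples and at 9449, 11012 and 9667 in the regenerating ones. All 3 regenerating values exceeded all 3 uninjured values for both probes, and the means were in a ratio of 1.26 for miR-221 and 1.33 for miR-222 (exact permutation test, two-sided, p = 0.1 each, the smallest that 3 samples against 3 allow). Fitted with limma as log2(value + 50), they gave changes of 0.33 and 0.41 (adjusted p = 0.267 and 0.212).

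Single samples weighed on both members. Without regenerating replicate 2, the sample in which miR-221 read highest, its log2 change was 0.16, and with any other sample left out it lay between 0.26 and 0.35. Without regenerating replicate 1, in which miR-222 read lowest of its group, miR-222 passed at 0.47 (limma adjusted p = 0.0436). It was 1 of 37 probes called in that fit, out of 132 tested. Regenerating replicate 1 stood apart in detection, with 217 probes above the limit where the other 5 arrays had 110 to 144. miR-222 also passed at 0.42 (limma adjusted p = 0.0047) with a filter that left 32 probes, of which 4 were called. This mismatch filter kept probes above 3 SDs of the mismatched control spots in at least 3 samples. By brightness miR-222 stood at 32, 31 and 33 in the uninjured samples, near the number kept, and at 27, 23 and 23 in the regenerating ones. It may have entered the filter through the regenerating samples, which was not tested, so this pass is no separate support.

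**Figure D3:**
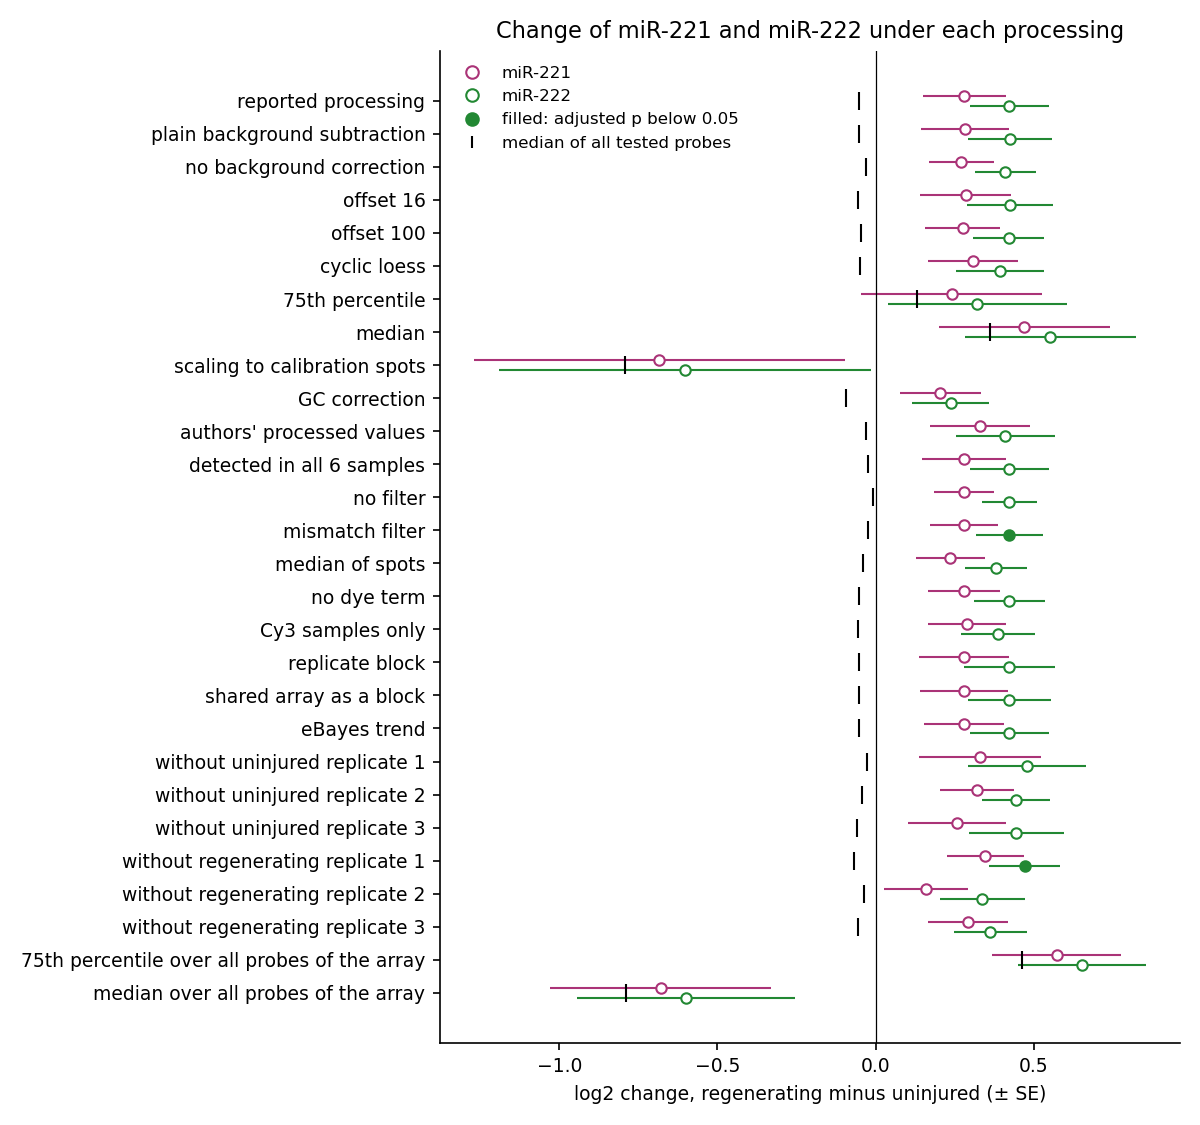
Log2 change (regenerating minus uninjured, with SE) of miR-221 and miR-222 under the reported processing and each alternative fit. Filled points passed the threshold and black ticks give the median of all tested probes; both members lie below 0 with calibration scaling and with the median of all probes of the array, and above it elsewhere.

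The pair moved together over the samples. In the background-corrected log2 values before normalization, where the groups overlap, the levels of miR-221 and miR-222 correlated over the 6 samples at Pearson r = 0.978 (exact permutation p = 0.0028) and Spearman rho = 0.943 (exact permutation p = 0.0167), both two-sided over 720 pairings, and at r = 0.945 without the 2 samples farthest from the median of miR-221. The values of a sample share an array, a dye and an RNA pool, and other probes followed the same array brightness. Over the 136 other tested probes the median r with miR-221 was 0.689, and 3 of them exceeded the value of miR-222. The permutation p therefore cannot separate a joint move of the pair from brightness common to an array. For the normalized values no pooled correlation is given, because the groups do not overlap and 3 samples a group are too few. Their spread is given in its place: over the 6 samples the SD of miR-221 was 0.17, that of miR-222 was 0.24 and that of the difference between them was 0.10. These SDs span both groups, so the shift between the groups enters them, and they do not show a joint move within a group. Within the groups the SD of the difference was 0.024 in the uninjured and 0.098 in the regenerating samples.

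Within this joint pattern the distance between the 2 probes was compared as well. The spots of the 2 probes lie in adjacent rows, so each array gives 12 side-by-side differences that need no normalization. The log2 difference, miR-222 minus miR-221, was -0.15 ± 0.021, -0.049 ± 0.011 and -0.064 ± 0.023 in the uninjured samples (SD over 12 spot pairs). It was -0.029 ± 0.016, -0.047 ± 0.024 and 0.056 ± 0.012 in the regenerating samples. Only in regenerating replicate 3, a Cy5 sample, did miR-222 read above miR-221, and regenerating replicate 2 lay next to uninjured replicate 2 with spot values that overlap. The group means were -0.088 ± 0.055 and -0.0065 ± 0.055 (SD, n = 3 each), a difference of 0.081 with an exact permutation p of 0.1, the smallest that 20 splits allow. On the normalized scale the difference between the groups was 0.14, from -0.16 ± 0.024 to -0.018 ± 0.098 (SD, n = 3 each), again with an exact permutation p of 0.1. Turned round, as the change of miR-221 minus that of miR-222, this is -0.14. It was -0.033 with GC correction (exact permutation p = 0.9) and -0.067 without regenerating replicate 3.

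**Figure D4:**
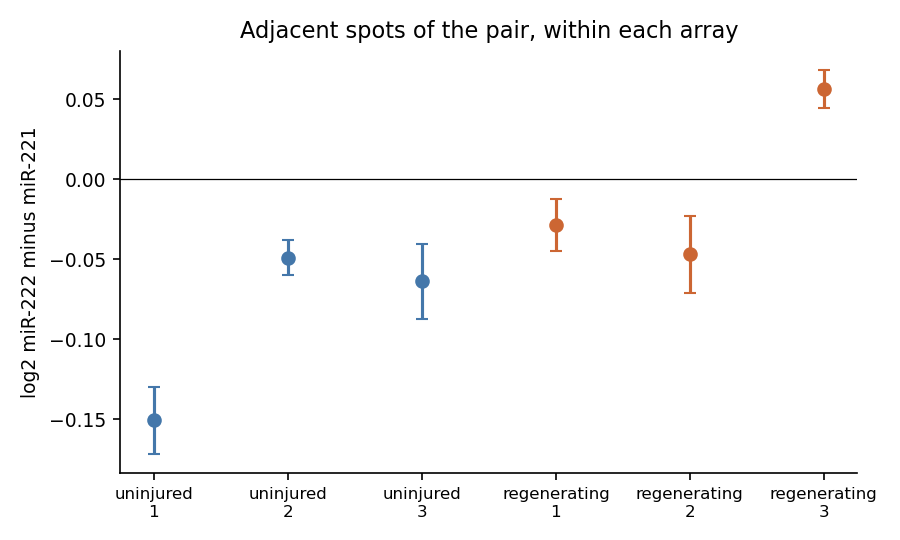
Log2 difference between adjacent spots of miR-222 and miR-221 in each sample, before normalization (points, mean of 12 spot pairs; bars, SD over them). Uninjured replicate 1 is lowest at -0.15 and regenerating replicate 3 highest at 0.056, and the other 4 samples lie between -0.064 and -0.029.

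Each member was among the probes whose course over the samples was most like that of the other. Likeness was the root mean square difference of the normalized log2 levels over the 6 samples, each probe taken about its own mean. Both groups enter this distance, so a probe near a member shares its shift between the groups by selection. The like changes given below are therefore no separate result. miR-222 was the third nearest of 137 probes to miR-221, at 0.092, and miR-221 the third nearest to miR-222; the median distance was 0.28 for miR-221 and 0.32 for miR-222. The other near probes of miR-221 were miR-15c (0.081), miR-133a (0.091) and miR-22a (0.10). Those of miR-222 were miR-214 (0.069), miR-25 (0.078) and miR-15c (0.13). Log2 changes of these were 0.27 for miR-15c, 0.28 for miR-133a, a miRNA of heart and skeletal muscle, 0.095 for miR-22a, 0.42 for miR-214 and 0.50 for miR-25, none past the threshold (limma adjusted p = 0.440, 0.294, 0.729, 0.220 and 0.130). Without regenerating replicate 1, miR-214 at 0.52 and miR-25 at 0.57 passed as miR-222 did (limma adjusted p = 0.0436 each), among 37 of 132 probes called. Their targets lie at edit distances of 10 to 16 from that of the member they resembled.

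Like both members, no tested miRNA from a list of those of the endothelium or vessel wall passed the test. Of the 26 names on a list of vascular miRNAs 25 were on the array and 24 were tested; 0 passed in either direction, where 3.62% of all probes did, so this count sets the list apart in no way. Changes lay above 0 for 9 and below for 14, and 1, miR-23a, stood at 0. The median of the list was -0.17 and that of all probes -0.052. miR-126, the best-known miRNA of endothelial cells, stood at 0.10 (SE 0.13), and its other arm miR-126* at -0.27 (SE 0.14). miR-126* was dim, with mean levels of 7.06 and 6.79 (uninjured and regenerating), and was detected in 3 uninjured samples but only 1 regenerating sample. Its change turned to 0.89 with 75th percentile scaling and 1.12 with median scaling. The smooth muscle miRNAs miR-143 and miR-145 stood at -0.19 (SE 0.15) and 0.44 (SE 0.15). Adjusted p-values of these 4 in limma were 0.693, 0.384, 0.538 and 0.181. The other 20 ran from -0.74 to 0.15, and among them all 5 miR-27 probes lay below 0, from -0.47 to -0.24. miR-145 was the only one of the 24 to read higher in each regenerating sample than in any uninjured one, and 4 (miR-27a, miR-27b, miR-27c and miR-146a) showed the opposite order, against 9.42% and 14.5% of all probes, which is close to these counts.

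A list of miRNAs tied to cell proliferation, as promoters or restraints, had 41 of its 42 names on the array and 38 tested. Of these 0 passed upward and 2 downward, miR-29a and miR-29b, where 1.45% and 2.17% of all probes did. The median was -0.091, where that of all probes was -0.052. All 4 markers of heart muscle (miR-1, miR-133a, miR-133b and miR-499) and both endothelial markers were among the tested probes, as were both smooth muscle markers, 1 of 2 red blood cell markers and 3 of 6 leukocyte markers, and 0 of these were called. The 4 fibroblast and epicardium markers were all tested, and 2 of them, the same miR-29a and miR-29b, were called lower. Over all probes 2.17% were called lower and 3.62% in either direction. Among all these markers miR-133a, miR-145, miR-214 and the leukocyte miR-223 read higher in every regenerating sample than in any uninjured one. That is 1 of 4 tested for heart muscle, 1 of 2 for smooth muscle, 1 of 4 for fibroblast and epicardium and 1 of 3 for leukocytes. It was 0 of 2 for endothelium and 0 of 1 for red blood cells. Over all probes the share was 9.42%, and with lists this short a difference from it was not tested. The log2 change of miR-223 was 1.16 (limma adjusted p = 0.131). With 1 sample left out it ran from 0.83 to 1.54. It passed only without uninjured replicate 3 (limma adjusted p = 0.0498), in a fit with 4 probes called of 133 tested. Other markers of the same cell types did not follow. miR-1 stood at -0.047, miR-499 at -0.074, miR-143 at -0.19 and miR-150 at -0.038, and miR-29a and miR-29b at -0.66 and -1.35. miR-133b (0.20), miR-155 (0.073) and miR-199 (0.35) lay above 0 with overlapping groups. Of these miR-155 was dim and was detected in only 2 uninjured samples and 1 regenerating sample. The part of any cell type in the levels of miR-221 and miR-222 was not tested.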

How the data were processed

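The authors deposited the mean intensity (per the file headers) of each of 3968 spots per array on a linear scale, without background subtraction, and a table of processed intensity values (columns' medians 41.0 to 63.6) whose background and scaling steps the labels do not state; its log2 values correlated at r of 0.986 to 1.00 with those computed here, so scale and direction are known. Per the labels' protocols, a service company hybridised poly(A)-tailed small RNA. Local background was the median of the 16 nearest empty spots. limma 3.58.1 in R 4.3.3 gave normexp correction (offset 50), log2 values averaged over 12 spots, quantile normalization over 218 probes, and lmFit and eBayes with a dye term for the 138 probes detected (3 SDs of the empty spots) in at least 3 of 6 samples; 110 to 144 were detected on 5 arrays and 217 in regenerating replicate 1. The number of arrays limits the precision.

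Members, lists and tests were chosen with earlier results of these data known. The written rule named the 2 members, probes of the same seed, the 4 nearest profiles of each, every vascular list member and the 2 smallest p-values; for the vascular list only 4 values and ranges are printed. The written correlation test was moved to values before normalization. Calibration scaling used the 5 such probes over 10 SDs of the empty spots on every array. The steps were tested on simulated data with built-in log2 changes of size 1 and 2, most of which were recovered. Changes as small as those of the members were not built in, so their recovery was not tested. In the 9 runs with built-in changes false calls were 57 of 234 (24.4%), above the rate the threshold sets, which bears on the 5 calls. Only 1 simulated data set had no built-in changes, and it gave 0 calls. Differences in miRNA brightness between arrays were not built in.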

Additional observations from a re-analysis of the deposited data

How the results depend on the processing

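Scaling over all 218 probes, and all alternatives of the correlation, the lists and nearby probes, were added after the data were examined. The changes of miR-221 and miR-222 ran up to 0.57 and 0.65 (limma adjusted p = 0.107 and 0.0779) with the 75th percentile of all 218 probes. They turned with calibration scaling (-0.68 and -0.60) and with the median of all 218 probes (-0.68 and -0.60), as did miR-15c (-0.72 and -0.71), miR-133a (-0.52 and -0.52), miR-22a (-0.76 and -0.76), miR-214 (-0.79 and -0.79), miR-25 (-0.83 and -0.83), miR-126 (-0.75 and -0.74) and miR-145 (-0.87 and -0.86). These 2 scalings move all probes of an array by 1 amount, and the median of all tested probes was -0.79 in each. miR-22a also turned with GC correction (-0.018), miR-126 with the authors' values (-0.041), and miR-126* with 75th percentile (0.89; over all 218 probes 1.22) and median scaling (1.12). miR-222 passed at 0.42 with the mismatch filter, as 1 of 4 probes called out of 32 tested. Whether miR-222 entered this filter only through the regenerating samples was not tested. Its SE there was 0.11 against 0.13. The filter leaves the values of each probe unchanged, so the SE differs only through the variance that eBayes draws from all tested probes. With 1 sample left out miR-221 ran from 0.16 to 0.35 and miR-222 from 0.34 to 0.48, past the threshold only without regenerating replicate 1. The difference, miR-221 minus miR-222, ran from -0.19 to -0.033, the latter with GC correction (exact permutation p = 0.9); filters, blocks and array-wide scalings cannot move it or move it by 1 fixed amount. The correlation before normalization ran from 0.978 to 0.984 over 5 alternatives.

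The 5 of 138 probes called became 10 with calibration scaling, 3 with GC correction and 0 with the Cy3 samples only. They became 9 with a presumed shared array as a block, 3 under an eBayes trend and 11 at an unadjusted p below 0.01. With the 75th percentile and the median of all 218 probes they became 9 and 29. The mismatch filter left 32 probes, of which 4 were called. With 1 sample left out the calls ran from 0 (without uninjured replicate 2 or regenerating replicate 3) to 37 of 132 (without regenerating replicate 1). With the replicate number as a block 1 probe was called, 0 of the proliferation list. The members stood at the same changes there, with limma adjusted p of 0.436 and 0.270. Same-numbered samples deviated from their group means at r of 0.14, -0.45 and 0.37, which does not settle whether the numbers pair the samples. In fits of 138 probes 24 of the vascular list were tested. Its calls, with those over all probes in brackets, were 4 (10 of 138) with calibration scaling and 2 (4 of 32) with the mismatch filter. They were 1 (9 of 138) with the presumed shared array as a term. With the 75th percentile and the median of all 218 probes they were 1 (9 of 138) and 10 (29 of 138). With 1 sample left out they ran from 0 to 6, the latter without regenerating replicate 1 (37 of 132). In fits of 138 probes 38 of the proliferation list were tested. Its 2 calls became 1 with plain background subtraction, an offset of 16, GC correction, the authors' values or the mismatch filter, where all probes had 4, 4, 3, 5 and 4. They became 0 with 75th percentile scaling (also over all 218 probes), median scaling, the Cy3 samples only or an eBayes trend, where all probes had 5, 9, 7, 0 and 3. At an unadjusted p below 0.01 they were 4 (11 of 138 probes), and with the median of all 218 probes 9 (29 of 138). With 1 sample left out they ran from 0 to 9, the latter without regenerating replicate 1 (37 of 132). The presumed shared array joined uninjured replicate 2 and regenerating replicate 1, and was inferred only from the pattern of their empty spots (Spearman rho 0.46 over 1060 spots). The next highest pair, regenerating replicates 1 and 3, stood at 0.23. Whether any of these samples shared an array was not tested.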
